A study of Mus musculus with 8 samples.

Results

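Chemokines are small secreted proteins that direct the movement of cells. The genes for them and for their receptors were examined in enteric neural crest cells, which migrate along the gut and give rise to its neurons and glia. Members were the genes of the deposited table whose symbols begin with Ccl, Cxcl, Ccr or Cxcr followed by a number, together with Cx3cl1, Cx3cr1, Xcl1 and Xcr1. The rule found 53 of the 18561 genes in the table, 36 of them ligands and 17 receptors. RNA was measured in 8 libraries from the gastrointestinal tract of embryonic day 14.5 mice, made of cells sorted with antibodies against CD271 (the product of Ngfr) and the sugar epitope CD57. Each tube held about 200 cells. The 5 libraries called Emb kd 1 to 5 here were labelled as coming from Emb knockdown mice, and the 3 called WT 1 to 3 from wild-type mice. Emb encodes embigin, a membrane protein that escorts lactate transporters. The labels gave neither the method, the allele or the promoter of the knockdown nor the strain, the litters or the number of embryos behind a tube. They did not say that libraries of a group came from separate animals, so a p-value here reflects only the spread of these libraries, which may be technical.

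The family is named after the spacing of conserved cysteines into CC, CXC, CX3C and XC ligands, and nearly all receptors couple to inhibitory G proteins. Inflammatory ligands are made on demand by macrophages and stromal cells and call in monocytes and neutrophils, while homeostatic ligands such as Cxcl12 are made by mesenchyme during development. Macrophages colonise the fetal gut and carry receptors such as Cx3cr1, Ccr1 and Ccr2 themselves.

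Libraries held between 20116607 and 26959265 expected counts, and the floor of 3 counts was 0.0966 to 0.155 CPM (counts per 1000000 counts, after TMM scaling), a limit that covers counting error only. Emb kd 1 and 2 stood apart. A list of 15 macrophage markers summed to 23729, 19865, 1728, 2156 and 1215 CPM in Emb kd 1 to 5, against 489.9, 545 and 310.4 CPM in WT 1 to 3, and Cd163 alone of the 15 was at 0 in any library. The 11 markers of enteric neural crest progenitors summed to 221, 179, 1051, 1129.6 and 1169.9 CPM in Emb kd 1 to 5, against 3086, 3161 and 3163 CPM in WT 1 to 3, with Sox10, Foxd3 and Tlx2 at 0 in Emb kd 2. Ednrb, at 176 and 159 CPM, made up most of the sum in Emb kd 1 and 2, where none of the other 10 exceeded 11.7 CPM. Without Emb kd 1 and 2, 9 of the 11 were still lower in Emb kd 3 to 5 than in WT and 0 higher (edgeR, adjusted p under 0.05). Of all genes tested with the 6 libraries left, 9.37% were called lower and 11.1% higher. Tests were run on those 6 libraries and on all 8. Emb itself had 353, 349, 37.2, 21.4 and 21.7 CPM in Emb kd 1 to 5, against 16.9, 17.7 and 15.9 CPM in WT 1 to 3, and no library labelled knockdown was below the WT range (log2 fold change 0.67 ± 0.26 SE, edgeR adjusted p = 0.0972 over 6 libraries). In bulk RNA, more cells of a type and more RNA per cell cannot be told apart.

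All 53 genes had at least 1 count in some library, 28 had counts in all 8, and between 40 and 48 were detected in a single library. Summed over the 53 genes, the per-length level was 16436, 15434, 3204, 3612 and 2460 TPM (the deposited per-length unit, scaled to 1000000 per library) in Emb kd 1 to 5, against 587, 1203 and 782 TPM in WT 1 to 3. Every library labelled knockdown lay above every WT library, and Emb kd 1 and 2 lay above the rest. The 11 inflammatory CC ligands gave 14102, 13208, 2384, 2967 and 1718 TPM in Emb kd 1 to 5, against 318, 664 and 467 TPM in WT 1 to 3. Ccl4 was the leading gene on this per-length scale in all 3 sets of libraries. It averaged 5012 TPM in Emb kd 1 and 2, 979 ± 370 TPM in Emb kd 3 to 5 and 213 ± 107 TPM in WT (SD, n = 3 for Emb kd 3 to 5 and for WT). Behind Ccl4, the mean TPM of Emb kd 3 to 5 ran in the order Ccl3, Ccl2, Ccl7, Ccl12, Cxcl2, and the first 4 of these means lay within their SDs of each other. In WT the order was Ccl2, Ccl3, Cxcl12, Ccl7, Cxcl1, Ccl27a, and each of these means lay within the SD of its neighbour. Ccl12 was 12th in WT, at 16.9 ± 3.5 TPM, and 5th in Emb kd 3 to 5, at 265 ± 180 TPM (SD, n = 3 each).

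**Figure D1:**
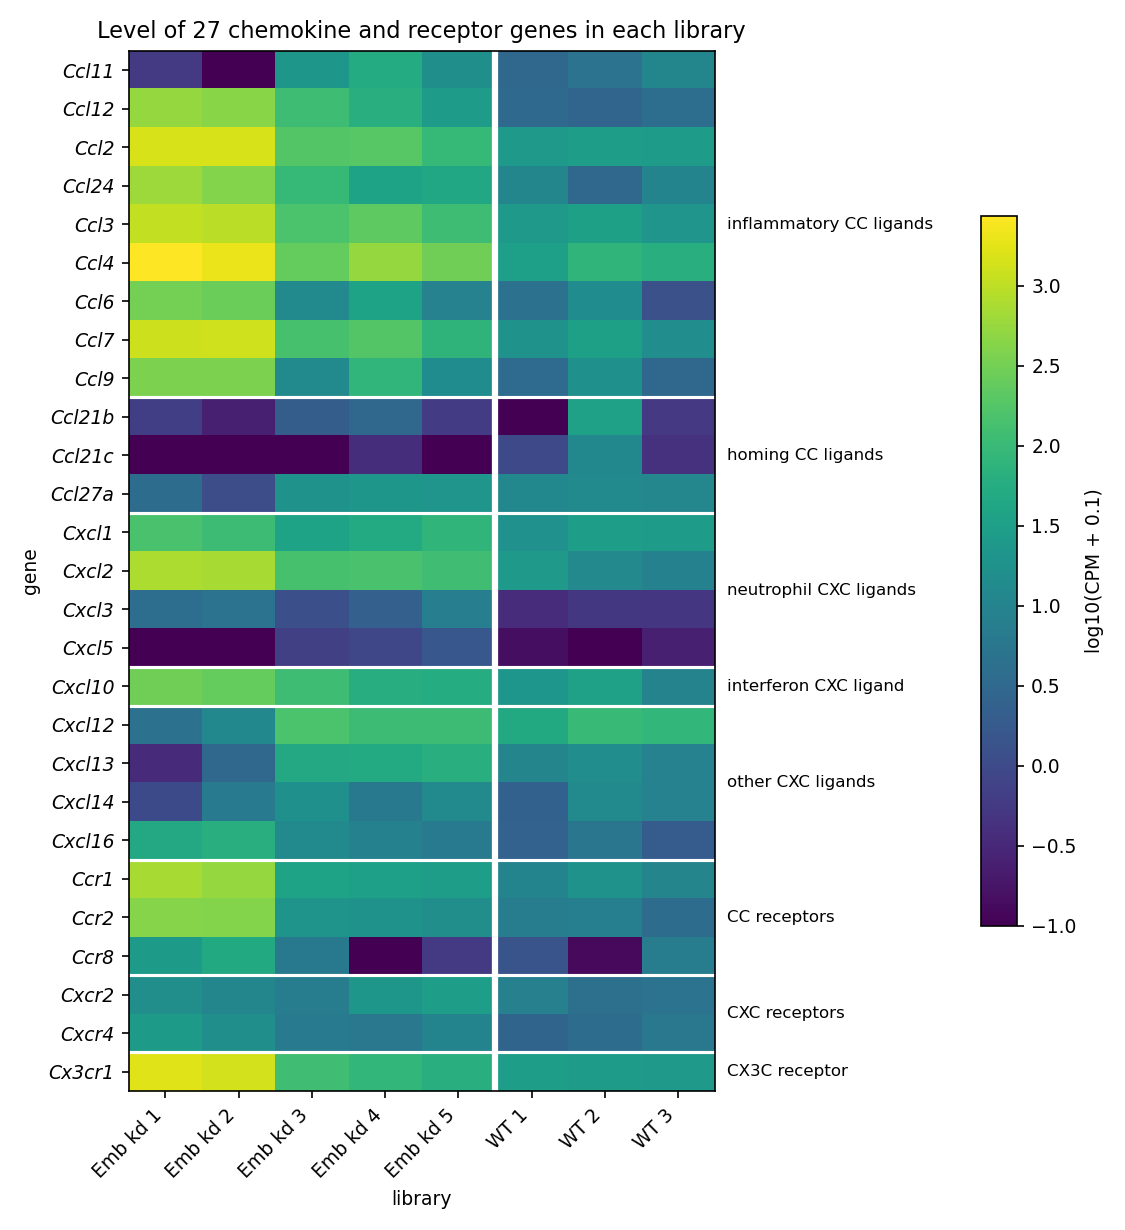
Level of 27 chemokine and receptor genes described library by library, as the log10 of CPM + 0.1 (colour), in Emb kd 1 to 5 and WT 1 to 3 (columns), ordered by role (rows). Most inflammatory ligands and their receptors have their highest values in Emb kd 1 and 2, while Cxcl12, Cxcl13, Ccl11 and Ccl27a are lowest there.

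Across the 6 libraries, 35 of the 53 genes passed the filter on low counts, and 19 of these 35 were higher in Emb kd 3 to 5 than in WT while 0 were lower (edgeR quasi-likelihood test, adjusted p under 0.05 over all 15115 genes tested). Over all genes tested, 11.1% were called higher and 9.37% lower. The median log2 fold change was 1.56 over the 35 genes and 0.02 over all genes, and with no filter on low counts it was 1.09 over the 53 and 0.04 over all genes. Emb kd 3 to 5 lay above WT without overlap for 21 of the 35 genes, against 20.4% of all genes, and below WT without overlap for 1, Ccl27b, against 23% of all genes. These counts cover the genes that passed the filter, not all 53, and 18 genes went untested. Some of the called genes, Cxcl3 and Cxcl5 among them, passed it only through Emb kd 3 to 5. Called genes numbered 14 among 25 tested ligands and 5 among 10 tested receptors. With all 8 libraries, 39 genes were tested and 0 were called, as were 0% of all 15411 genes. At an unadjusted p under 0.05, 20 of the 39 were higher in the 8-library test and 0 lower, against 12.7% and 5.9% of all genes. On the same 8 libraries DESeq2 called 20 of the 39 higher, against 10.5% of all genes, and limma voom with quality weights called 17 higher, against 12.5%. All 5 libraries labelled knockdown lay above all 3 WT libraries for 16 of the 39, against 10.8% of all genes. Each of the 16 had an exact two-sided permutation p of 0.0357, unadjusted and the smallest that 56 splits can give. Full separation of the groups fixes this p, so it adds nothing to the count of 16. Leaving out 1 of the 6 libraries gave 20 calls without Emb kd 3 (19 higher, with Cx3cl1 lower), 6 without Emb kd 4, 14 without Emb kd 5, 10 without WT 1, 11 without WT 2 and 9 without WT 3. The family genes tested there numbered 37, 38, 39, 36, 37 and 37, in that order. Over all genes, the calls higher were 2962 of 15394, 104 of 15454, 903 of 15484, 828 of 15533, 224 of 15418 and 166 of 15455, in the same order. The 6 calls that held whichever library was left out were Ccl2, Ccl3, Ccl4, Ccl12, Cxcl2 and Cxcl13.

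**Figure D2:**
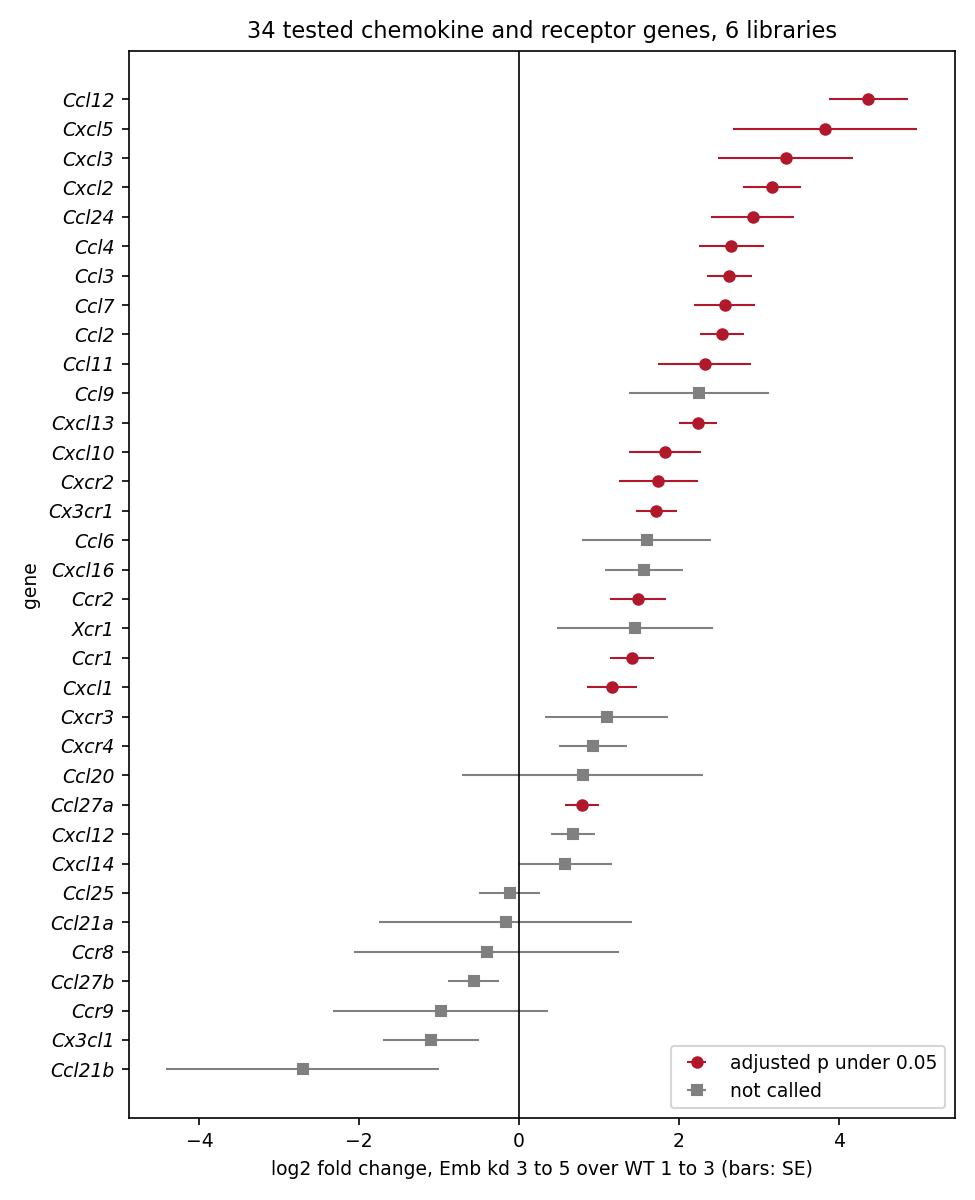
Log2 fold change of Emb kd 3 to 5 over WT (horizontal axis, bars are the standard error) for 34 of the chemokine and receptor genes tested with 6 libraries (rows), with called genes marked by colour. The 18 called genes shown lie right of 0, from 0.79 for Ccl27a to 4.37 for Ccl12.

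Of the 11 inflammatory CC ligands, 9 were tested with 6 libraries and 7 rose in Emb kd 3 to 5, against 11.1% of all genes. The 7 were Ccl2, Ccl3, Ccl4, Ccl7, Ccl11, Ccl12 and Ccl24. The largest of these changes was that of Ccl12, a ligand of the monocyte receptor Ccr2 in mouse. Ccl12 had 550.5, 437, 112, 62.6 and 27.4 CPM in Emb kd 1 to 5, against 3.17, 2.71 and 3.93 CPM in WT 1 to 3. All 5 libraries labelled knockdown were above the 3 WT libraries, which lay close together, and Emb kd 5 was the lowest of the 5. The log2 fold change over 6 libraries was 4.37 ± 0.50 (SE; edgeR, adjusted p = 0.00352), and over 8 libraries it was 6.18 ± 1.23 (SE; edgeR, adjusted p = 0.137).

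Ccl2, which draws monocytes out of the blood through Ccr2, had 1459, 1468, 180.4, 194 and 94.6 CPM in Emb kd 1 to 5, against 24.5, 29.2 and 27.3 CPM in WT 1 to 3. The groups did not overlap, and the WT values differed little. Over 6 libraries the log2 fold change was 2.54 ± 0.28 (SE; edgeR, adjusted p = 0.00352), and over 8 libraries it was 4.65 ± 1.17 (SE; edgeR, adjusted p = 0.144). Ccl7, another Ccr2 ligand, had 1262, 1312, 138, 175 and 78.1 CPM in Emb kd 1 to 5, against 18.4, 32.9 and 14.6 CPM in WT 1 to 3. Within the libraries labelled knockdown it followed the order of Ccl2, all 5 above WT 2, the highest WT library. Its 6-library log2 fold change was 2.57 ± 0.38 (SE; edgeR, adjusted p = 0.00792), and over 8 libraries it was 4.75 ± 1.24 (SE; edgeR, adjusted p = 0.148).

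Ccl3 and Ccl4, the macrophage inflammatory proteins, gave the same split, Ccl3 being a ligand of Ccr1. Ccl3 had 1093, 943, 149, 215 and 116 CPM in Emb kd 1 to 5, against 24.8, 32.8 and 20.2 CPM in WT 1 to 3. The groups did not overlap, and Emb kd 4 was the highest of Emb kd 3 to 5. Set against WT, Emb kd 3 to 5 gave a log2 fold change of 2.63 ± 0.28 (SE; edgeR, adjusted p = 0.00343), and over 8 libraries it was 4.28 ± 0.98 (SE; edgeR, adjusted p = 0.137). Ccl4 had 2737, 2028, 241, 552 and 299.7 CPM in Emb kd 1 to 5, against 31.9, 80.9 and 61.0 CPM in WT 1 to 3, again without overlap and with Emb kd 4 above Emb kd 3 and 5. In the test of 6 libraries its log2 fold change came to 2.65 ± 0.41 (SE; edgeR, adjusted p = 0.00908), and over 8 libraries it was 4.34 ± 1.05 (SE; edgeR, adjusted p = 0.139). The annotated spans of Ccl3 and Ccl4 overlap on opposite strands in RefSeq, and this cDNA does not keep strand, so reads in the shared stretch cannot be told apart.

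Both eotaxins rose, but with different library orders. Ccl24, a ligand of the eosinophil receptor Ccr3, had 616, 418, 95.1, 37.4 and 46.1 CPM in Emb kd 1 to 5, against 10.6, 3.00 and 10.1 CPM in WT 1 to 3. Like the Ccr2 ligands it was highest in Emb kd 1 and 2, and the groups did not overlap. Over 6 libraries the log2 fold change was 2.92 ± 0.52 (SE; edgeR, adjusted p = 0.0129), and over 8 libraries it was 4.94 ± 1.26 (SE; edgeR, adjusted p = 0.145). Ccl11, the other eotaxin, which stromal cells are known to make, had 0.464, 0, 22.4, 54.6 and 16.0 CPM in Emb kd 1 to 5, against 2.96, 4.80 and 10.9 CPM in WT 1 to 3. It was at or near 0 in Emb kd 1 and 2, highest in Emb kd 4, and above WT in all of Emb kd 3 to 5. Its 6-library log2 fold change was 2.32 ± 0.58 (SE; edgeR, adjusted p = 0.0279), and over 8 libraries it was 1.59 ± 1.73 (SE; edgeR, adjusted p = 0.681).

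Ccl6 and Ccl9, ligands of Ccr1 made by myeloid cells, were not called. Ccl6 had 322, 273, 13.3, 37.6 and 9.31 CPM in Emb kd 1 to 5, against 4.65, 14.1 and 1.14 CPM in WT 1 to 3. Ccl9 had 366, 369.5, 13.4, 84.0 and 14.3 CPM in Emb kd 1 to 5, against 3.39, 16.9 and 3.05 CPM in WT 1 to 3. Both were far higher in Emb kd 1 and 2 than elsewhere, and for both WT 2 lay within the range of Emb kd 3 to 5. All 8 deposited counts of Ccl9 were fractional. The 6-library log2 fold changes were 1.59 ± 0.81 (SE; edgeR, adjusted p = 0.185) for Ccl6 and 2.25 ± 0.88 (SE; edgeR, adjusted p = 0.0976) for Ccl9. Ccl5, typical of T cells, never exceeded 1.27 CPM, and Ccl8 never exceeded 0.188 CPM.

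Beside these ligands, the macrophage markers moved in the same direction: 12 of the 14 tested with 6 libraries were higher in Emb kd 3 to 5 and 0 lower, the median log2 fold change being 2.15. For this and the other marker lists, the shares over all genes tested were 11.1% higher and 9.37% lower. The 6 general leukocyte markers summed to 7249, 6458, 585, 478 and 312 CPM in Emb kd 1 to 5, against 234, 200.4 and 184 CPM in WT 1 to 3, none at 0 in any library, and 3 of the 6 were higher. Dendritic cell markers summed to 472, 236, 70.7, 69.0 and 62.3 CPM in Emb kd 1 to 5, against 33.9, 21.5 and 22.8 CPM in WT 1 to 3. Of the 4 tested with 6 libraries, 3 were higher and 0 lower, the median log2 fold change being 2.88. The 9 T, NK and innate lymphoid markers summed to no more than 21.5 CPM in any library. Mast cell markers gave 1666, 4964, 370.1, 147 and 227 CPM in Emb kd 1 to 5, against 45.7, 133 and 712 CPM in WT 1 to 3, with the groups overlapping. Of the 9 mast cell markers measured, 4 were at 0 in Emb kd 4, Tpsb2 and Cma1 among them, and 0 to 2 in the other libraries. The part of these cells in the results was not tested. Among the calls for this group, Ccl7 was lost without Emb kd 4 (adjusted p = 0.0538). Ccl24 was lost without Emb kd 4 (adjusted p = 0.0522) or WT 3 (adjusted p = 0.05002), and Ccl11 without Emb kd 4, WT 1 or WT 2 (adjusted p = 0.121, 0.0768 and 0.1003). On log2(FPKM + 1) without a filter Ccl11 was lost too (limma, adjusted p = 0.0591).

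**Figure D3:**
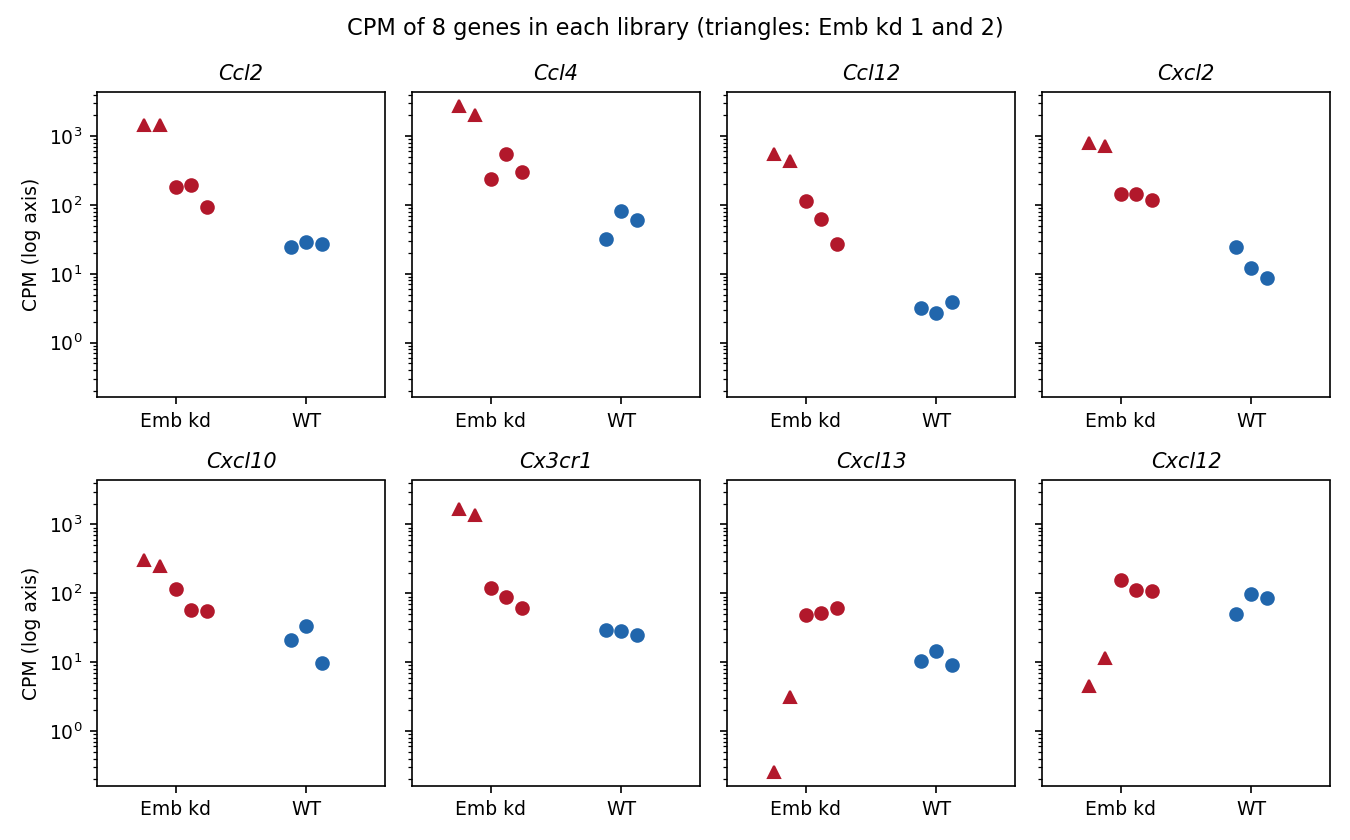
CPM on a log axis of 8 genes in each library, with libraries labelled knockdown left of WT in each panel and triangles for Emb kd 1 and 2. Ccl2, Ccl4, Ccl12, Cxcl2, Cxcl10 and Cx3cr1 are highest in Emb kd 1 and 2, whereas Cxcl12 and Cxcl13 are lowest there.

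Chromosomal neighbours did not all share this order. On mouse chromosome 11 (GRCm38.p6, RefSeq annotation) Ccl2 spans 82035577 to 82037452, Ccl7 82045712 to 82047525, Ccl11 82057832 to 82062955, Ccl12 82101845 to 82103399 and Ccl8 82115185 to 82116799. Within these 5 neighbours the mean of Emb kd 3 to 5 was 328 TPM for Ccl2, 275 TPM for Ccl7, 44.0 TPM for Ccl11, 265 TPM for Ccl12 and 0 TPM for Ccl8. The WT means were 75.1, 62.4, 11.9, 16.9 and 0.070 TPM in the same gene order. Ccl11 lies between Ccl7 and Ccl12, which were highest in Emb kd 1 and 2, yet it was at 0.464 and 0 CPM in those libraries. Farther along the chromosome lies the group of Ccl5 (83525778 to 83530518), Ccl9 (83572917 to 83578636), Ccl6 (83587886 to 83593087), Ccl3 (83647843 to 83649378) and Ccl4 (83648624 to 83664683). Here Ccl5 was nearly silent beside the most abundant ligand of the family.

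**Figure D4:**
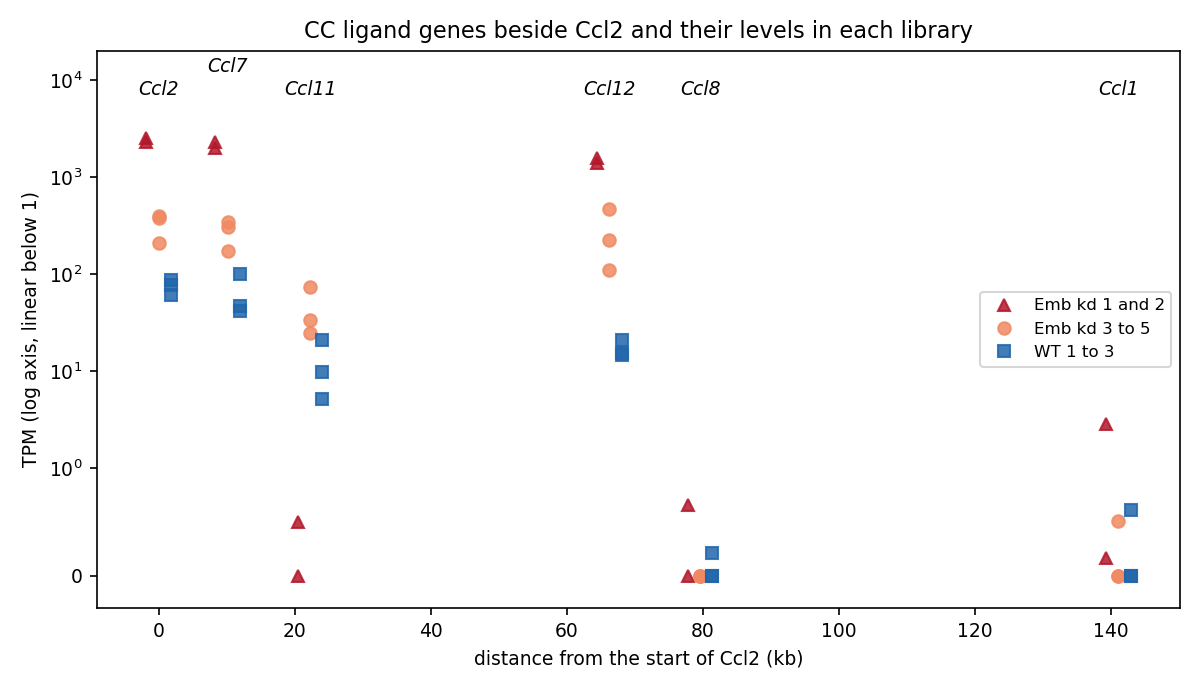
Per-length level (TPM, log axis that is linear below 1) of the 6 genes of the Ccl2 cluster against distance in kb from the Ccl2 start, with a point for each library of Emb kd 1 and 2, Emb kd 3 to 5 and WT, the 3 sets offset sideways. Ccl11, 22.3 kb from Ccl2, is the one expressed gene of the cluster that is lowest in Emb kd 1 and 2.

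Of 5 neutrophil-attracting CXC ligands 4 were tested with 6 libraries, and Cxcl1, Cxcl2, Cxcl3 and Cxcl5 were called higher, against 11.1% of all genes. Cxcl5 was near 0 in WT and passed the filter on low counts only through Emb kd 3 to 5, so its call adds no support. Cxcl3, at 6, 13 and 11 counts in WT 1 to 3, also needed Emb kd 3 to 5 to pass, so its call adds none either. Cxcl1, Cxcl2, Cxcl3 and Cxcl5 signal through Cxcr2 and lie in 1 cluster on chromosome 5. Cxcl1, Cxcl2 and Cxcl3 are classic targets of NF-kappaB, which binds the kappaB motif. Promoter stretches of these 3 and of the interferon-inducible Cxcl10 are shown because the motif occurs in all 4, and the capitals mark an overlapping pair of motif matches. They are from RefSeq on GRCm38.p6, read 5′ to 3′ on the gene's own strand.
Cxcl1: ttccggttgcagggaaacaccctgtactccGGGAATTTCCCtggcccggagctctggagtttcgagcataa
Cxcl2: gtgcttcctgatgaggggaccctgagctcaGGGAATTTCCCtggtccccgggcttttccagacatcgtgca
Cxcl3: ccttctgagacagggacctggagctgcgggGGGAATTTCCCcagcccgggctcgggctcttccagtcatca
Cxcl10: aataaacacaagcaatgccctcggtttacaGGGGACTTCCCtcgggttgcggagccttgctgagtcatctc
The stretches are chr5:90891144-90891214 (+) for Cxcl1, chr5:90903772-90903842 (+) for Cxcl2, chr5:90785998-90786068 (+) for Cxcl3 and chr5:92348953-92349023 (-) for Cxcl10. Counted from the annotated starts, their first bases are at -101, -127, -103 and -134, in that order. Cxcl1, Cxcl2 and Cxcl3 carried the same 11 capital letters, and Cxcl10 carried others.

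Searched on both strands in the 250 bases before every listed start, the kappaB consensus occurred before at least 1 start in 8.23% of the 27025 genes of the RefSeq table. It occurred in 10 of the 39 family genes in the table (25.6%) and in 6 of the 19 among these that reached 10 CPM or were called (31.6%). These shares leave out 14 family genes without a listed promoter, among them Ccl2, Ccl4, Ccl7, Ccl11, Ccl24 and Cxcl5. The core motif of the myeloid factor PU.1, GAGGAA, occurred in 25.9% of all these genes, in 35.9% of the family's and in 26.3% of the 19. These are matches of letters, not measured binding.

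Cxcl2, made quickly by macrophages and mast cells, had 780.3, 712, 142, 144 and 119 CPM in Emb kd 1 to 5, against 24.3, 12.1 and 8.77 CPM in WT 1 to 3. Every library labelled knockdown was above every WT library, and Emb kd 3 to 5 differed little from each other. Set against WT, Emb kd 3 to 5 gave a log2 fold change of 3.17 ± 0.36 (SE; edgeR, adjusted p = 0.00352), and over 8 libraries it was 4.65 ± 0.97 (SE; edgeR, adjusted p = 0.137). Cxcl1, which epithelium and stroma also make, had 148, 112, 36.8, 51.9 and 78.8 CPM in Emb kd 1 to 5, against 17.6, 29.5 and 28.0 CPM in WT 1 to 3. Emb kd 3 at 36.8 CPM lay just above WT 2 at 29.5 CPM, and Emb kd 5 was the highest of Emb kd 3 to 5. In the test of 6 libraries its log2 fold change came to 1.16 ± 0.31 (SE; edgeR, adjusted p = 0.0346), and over 8 libraries it was 1.77 ± 0.49 (SE; edgeR, adjusted p = 0.155).

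Cxcl3 had 3.92, 4.71, 1.11, 2.20 and 7.79 CPM in Emb kd 1 to 5, against 0.261, 0.419 and 0.404 CPM in WT 1 to 3. Its longest reading frame is 89.8% identical to that of Cxcl2, and its mean per-length level in Emb kd 3 to 5 was 5.90 TPM beside 194 TPM for Cxcl2, so how reads were split between the pair is uncertain. Over 6 libraries the log2 fold change was 3.33 ± 0.84 (SE; edgeR, adjusted p = 0.0292), and over 8 libraries it was 3.43 ± 0.81 (SE; edgeR, adjusted p = 0.137). Cxcl5 had 0, 0, 0.592, 0.795 and 1.48 CPM in Emb kd 1 to 5, against 0.0435, 0 and 0.147 CPM in WT 1 to 3. WT values rest on 1, 0 and 4 counts, and the 2 libraries highest in Cxcl2, Emb kd 1 and 2, had none. Its 6-library log2 fold change was 3.83 ± 1.15 (SE; edgeR, adjusted p = 0.0472), and over 8 libraries it was 3.09 ± 1.89 (SE; edgeR, adjusted p = 0.428). The untested Cxcl15 reached at most 0.404 CPM.

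Cxcr2, the neutrophil receptor for these ligands, had 15.5, 10.7, 7.51, 22.1 and 29.3 CPM in Emb kd 1 to 5, against 8.56, 4.25 and 4.84 CPM in WT 1 to 3. WT 1 lay above Emb kd 3, so the groups overlapped, although the gene was called higher over 6 libraries. All 8 deposited counts of Cxcr2 were fractional. Set against WT, Emb kd 3 to 5 gave a log2 fold change of 1.74 ± 0.50 (SE; edgeR, adjusted p = 0.0409), and over 8 libraries it was 1.53 ± 0.54 (SE; edgeR, adjusted p = 0.201). The 9 neutrophil markers summed to 176, 124, 18.2, 181 and 47.9 CPM in Emb kd 1 to 5, against 4.56, 23.1 and 521 CPM in WT 1 to 3, WT 3 standing out through Mpo at 371 CPM and Elane at 99.3 CPM. Retnlg was at 52.5 CPM in Emb kd 4 and under 1 CPM in the others. Csf3r was the 1 of 6 tested markers called higher, against 11.1% of all genes. The part of neutrophils in the Cxcr2 values was not tested. The calls of Cxcl1, Cxcl3, Cxcl5 and Cxcr2 were each lost without any 1 of Emb kd 4, Emb kd 5, WT 1, WT 2 or WT 3. The highest adjusted p among these was 0.109 for Cxcl1, 0.0989 for Cxcl3, 0.156 for Cxcl5 and 0.137 for Cxcr2. The call of Cxcr2 was also lost on the log2(FPKM + 1) scale (limma, adjusted p = 0.0607), and that of Cxcl5 without a filter on low counts (edgeR, adjusted p = 0.0742). On log2(FPKM + 1) without a filter the calls of Cxcl1, Cxcl3 and Cxcr2 were lost as well (limma, adjusted p = 0.0942, 0.0856 and 0.115).

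Interferon-inducible ligands were represented by Cxcl10, which draws T cells through Cxcr3. Cxcl10 had 301, 249, 115, 58.1 and 56.3 CPM in Emb kd 1 to 5, against 21.2, 33.9 and 9.72 CPM in WT 1 to 3. The groups did not overlap, with Emb kd 1 and 2 highest and Emb kd 4 and 5 close to each other. In the test of 6 libraries its log2 fold change came to 1.83 ± 0.45 (SE; edgeR, adjusted p = 0.0275), and over 8 libraries it was 2.85 ± 0.77 (SE; edgeR, adjusted p = 0.152). Its call was lost without Emb kd 4, WT 1 or WT 3 (adjusted p = 0.0863, 0.0810 and 0.0782), and on log2(FPKM + 1) without a filter (limma, adjusted p = 0.0638). In RefSeq the gene overlaps Art3. Cxcl9, another Cxcr3 ligand, reached at most 0.471 CPM. Cxcr3 itself had 7.73, 7.54, 1.11, 1.03 and 0.415 CPM in Emb kd 1 to 5, against 0.478, 0.387 and 0.330 CPM in WT 1 to 3, and was not called (log2 fold change 1.09 ± 0.77 SE, edgeR adjusted p = 0.328).

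Of the 17 receptors 10 were tested with 6 libraries and 5 rose, against 11.1% of all genes. Among the 5 were Cx3cr1, Ccr1 and Ccr2 of the monocyte and macrophage lineage. Cx3cr1, the fractalkine receptor of resident macrophages, had 1658, 1382, 121, 87.8 and 61.1 CPM in Emb kd 1 to 5, against 29.6, 28.1 and 24.7 CPM in WT 1 to 3. The 3 WT values lay close together, below all libraries labelled knockdown, and Emb kd 3 was the highest of Emb kd 3 to 5. Over 6 libraries the log2 fold change was 1.71 ± 0.26 (SE; edgeR, adjusted p = 0.00792), and over 8 libraries it was 4.59 ± 1.41 (SE; edgeR, adjusted p = 0.170). Its ligand Cx3cl1, a membrane-bound chemokine, had 2.89, 3.30, 5.70, 1.12 and 2.26 CPM in Emb kd 1 to 5, against 7.34, 4.12 and 8.15 CPM in WT 1 to 3. Cx3cl1 overlapped between the groups and was not called (log2 fold change -1.10 ± 0.60 SE, edgeR adjusted p = 0.215). It was called lower without Emb kd 3 (log2 fold change -1.96, edgeR adjusted p = 0.0231) and by limma voom with quality weights (log2 fold change -2.04, adjusted p = 0.0242).

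Ccr1, a receptor for Ccl3, Ccl6 and Ccl9, had 708, 533, 38.0, 32.5 and 30.2 CPM in Emb kd 1 to 5, against 9.82, 17.9 and 10.2 CPM in WT 1 to 3. Emb kd 3 to 5 were close to each other and above WT 2, the highest WT library. Its 6-library log2 fold change was 1.41 ± 0.28 (SE; edgeR, adjusted p = 0.0148), and over 8 libraries it was 4.40 ± 1.44 (SE; edgeR, adjusted p = 0.187). Ccr2, the receptor that lets monocytes leave the bone marrow, had 433, 413, 20.0, 19.1 and 15.5 CPM in Emb kd 1 to 5, against 7.65, 8.28 and 3.60 CPM in WT 1 to 3. No WT library reached the lowest library labelled knockdown. Set against WT, Emb kd 3 to 5 gave a log2 fold change of 1.49 ± 0.35 (SE; edgeR, adjusted p = 0.0228), and over 8 libraries it was 4.79 ± 1.57 (SE; edgeR, adjusted p = 0.188).

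Ccr8 had 26.1, 50.4, 6.03, 0 and 0.461 CPM in Emb kd 1 to 5, against 1.35, 0.0322 and 7.30 CPM in WT 1 to 3. This receptor of T helper subsets was high in Emb kd 1 and 2 and spread over both groups otherwise, and its direction over 6 libraries depended on single libraries (log2 fold change -0.40 ± 1.66 SE, edgeR adjusted p = 0.880). Log2 fold changes for Ccr8 were 0.19 without Emb kd 4, 0.09 without Emb kd 5 and 1.67 without WT 3. Ccr3, Ccr4, Ccr6, Ccr7, Ccr9 and Ccr10 stayed under 5 CPM in every library. Among the called receptors, Cx3cr1 was lost without Emb kd 4 (adjusted p = 0.0527) and Ccr1 without Emb kd 4 or WT 3 (adjusted p = 0.0727 and 0.0737). The call of Ccr2 was lost without Emb kd 4, WT 1, WT 2 or WT 3, with adjusted p from 0.0549 to 0.0968. The macrophage markers given beside the CC ligands moved with these receptors too, and their part was not tested.

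Of the developmental and stromal CXC ligands, Cxcl12 and Cxcl13 were lowest in Emb kd 1 and 2 among all libraries. Cxcl12, the mesenchymal ligand that guides migrating precursors through Cxcr4, had 4.53, 11.5, 154, 110.2 and 109 CPM in Emb kd 1 to 5, against 49.6, 98.9 and 86.1 CPM in WT 1 to 3. Emb kd 1 and 2 were far below every other library, while Emb kd 3 to 5 were above WT, by a narrow margin over WT 2. The gene was not called over 6 libraries (log2 fold change 0.67 ± 0.27 SE, edgeR adjusted p = 0.107), and over 8 its log2 fold change was -0.01 ± 1.00 (SE; edgeR, adjusted p = 0.997). Its receptor Cxcr4 had 26.2, 16.2, 6.92, 5.94 and 10.1 CPM in Emb kd 1 to 5, against 2.61, 3.61 and 5.91 CPM in WT 1 to 3. All libraries labelled knockdown were above WT, Emb kd 4 only just above WT 3, and the difference was not called (log2 fold change 0.92 ± 0.42 SE, edgeR adjusted p = 0.145).

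Cxcl13, a B-cell attractant that stromal organizer cells are known to make, had 0.258, 3.11, 48.5, 51.3 and 61.3 CPM in Emb kd 1 to 5, against 10.4, 14.7 and 9.03 CPM in WT 1 to 3. It was nearly absent from Emb kd 1 and 2, and Emb kd 3 to 5 lay close together above WT. In the test of 6 libraries its log2 fold change came to 2.24 ± 0.24 (SE; edgeR, adjusted p = 0.00343), and over 8 libraries it was 1.53 ± 1.34 (SE; edgeR, adjusted p = 0.590). Its receptor Cxcr5 reached at most 1.49 CPM, in Emb kd 1. Cxcl14 had 0.876, 6.78, 16.7, 6.22 and 12.6 CPM in Emb kd 1 to 5, against 2.30, 12.5 and 9.06 CPM in WT 1 to 3, overlapped between the groups and was not called (log2 fold change 0.58 ± 0.58 SE, edgeR adjusted p = 0.498).

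Cxcl16, a membrane-bound ligand of macrophages, was instead highest in Emb kd 1 and 2, as the inflammatory ligands were. It had 46.9, 62.5, 13.1, 8.93 and 6.55 CPM in Emb kd 1 to 5, against 2.39, 5.41 and 1.87 CPM in WT 1 to 3. The groups did not overlap, but the difference just missed the threshold (log2 fold change 1.56 ± 0.49 SE, edgeR adjusted p = 0.0532). It was called under 5 of the 9 other settings with these 6 libraries, the adjusted p ranging from 0.00728 by limma voom to 0.0744 on log2(FPKM + 1) without a filter. With 1 library left out it was called in 0 of 6 fits (edgeR, adjusted p from 0.0584 to 0.170). Its receptor Cxcr6 reached at most 1.22 CPM. Cxcl16 overlaps Zmynd15 in RefSeq.

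Beside Cxcl12, Cxcl13 and Ccl11, the 10 gut mesenchyme markers summed to 109, 737, 7176, 6401 and 6496 CPM in Emb kd 1 to 5, against 3381, 3961 and 4630.0 CPM in WT 1 to 3. Pdgfra was at 0 in Emb kd 1. Over 6 libraries 6 of the 10 rose in Emb kd 3 to 5 and 0 fell, against 11.1% and 9.37% of all genes. Endothelial markers summed to 83.9, 74.6, 214, 177 and 114 CPM in Emb kd 1 to 5, against 649, 509.9 and 720.0 CPM in WT 1 to 3. Of these 10 markers 9 were lower in Emb kd 3 to 5 over 6 libraries, against 9.37% of all genes. The part of mesenchyme and endothelium in these levels was not tested.

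Of the 11 CC ligands grouped here as homing ligands, 6 were tested with 6 libraries and 1 was called higher, against 11.1% of all genes. This was Ccl27a, a skin chemokine. It had 3.66, 1.04, 19.1, 22.0 and 20.7 CPM in Emb kd 1 to 5, against 11.6, 12.9 and 11.4 CPM in WT 1 to 3. Emb kd 3 to 5 were close together above WT, and Emb kd 1 and 2 were below WT. Over 6 libraries the log2 fold change was 0.79 ± 0.21 (SE; edgeR, adjusted p = 0.0335), and over 8 libraries it was 0.15 ± 0.87 (SE; edgeR, adjusted p = 0.946). All 8 of its deposited counts were fractional, the gene overlaps Il11ra1, and the call was lost without any 1 of Emb kd 4, Emb kd 5, WT 1, WT 2 or WT 3 (adjusted p from 0.0572 to 0.141). The related Ccl27b had 0.670, 0.471, 4.66, 5.24 and 4.61 CPM in Emb kd 1 to 5, against 6.95, 6.44 and 8.15 CPM in WT 1 to 3. All libraries labelled knockdown were below WT, and the difference was not called (log2 fold change -0.57 ± 0.32 SE, edgeR adjusted p = 0.228). All 8 deposited counts of Ccl27b were fractional too, and the gene overlaps Il11ra2.

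Ccl25, the ligand of the gut-homing receptor Ccr9, was even across libraries. It had 3.86, 4.43, 4.40, 5.94 and 3.37 CPM in Emb kd 1 to 5, against 4.78, 5.54 and 4.55 CPM in WT 1 to 3, and its log2 fold change was -0.12 ± 0.38 (SE; edgeR, adjusted p = 0.850). Ccr9 had 1.24, 1.18, 1.18, 0.421 and 1.01 CPM in Emb kd 1 to 5, against 4.48, 0 and 0.770 CPM in WT 1 to 3, overlapping between the groups. Ccl21b, a lymphatic ligand of Ccr7, had 0.567, 0.141, 1.92, 2.90 and 0.507 CPM in Emb kd 1 to 5, against 0, 34.5 and 0.440 CPM in WT 1 to 3. WT 2 alone stood out, and its close copy Ccl21c followed with 0, 0, 0, 0.281 and 0 CPM in Emb kd 1 to 5, against 0.869, 11.5 and 0.330 CPM in WT 1 to 3. Ccl21b was not called (log2 fold change -2.71 ± 1.70 SE, edgeR adjusted p = 0.275), and without WT 2 its log2 fold change turned to 2.95. Reading frames of Ccl21a and Ccl21b are 99.5% identical, so the split of reads between these copies is uncertain. Ccr7 reached at most 1.31 CPM.

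The remaining genes were lower. Of the 25 genes that never reached 10 CPM and were not called, 18 stayed under 2 CPM in every library, 17 were untested with 6 libraries, and the highest value of any was 8.15 CPM. Several ligand and receptor pairs were low on both sides: Ccl20 and Ccr6 peaked at 1.26 and 1.13 CPM, Xcl1 and Xcr1 at 0.0740 and 3.61 CPM, and Ccl28 and Ccr10 at 0.234 and 1.12 CPM. Ccl17 and Ccl22, ligands of Ccr4, peaked at 1.55 and 0.259 CPM, and Ccr4 at 0.421 CPM. At this depth a gene at 0 counts may still be present below the floor.

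Members were also set against the macrophage markers, as CPM per 1000 CPM of the 15 markers, as a description without a test. Cx3cr1 gave 69.9, 69.6, 70.0, 40.7 and 50.3 in Emb kd 1 to 5, against 60.4, 51.6 and 79.6 in WT 1 to 3. Ccr1 gave 29.8, 26.8, 22.0, 15.1 and 24.9 in Emb kd 1 to 5, against 20.0, 33.0 and 33.0 in WT 1 to 3. For both receptors the groups overlapped on this scale, and Emb kd 1 and 2 lay among the others. Ccr2 gave 18.2, 20.8, 11.6, 8.87 and 12.7 in Emb kd 1 to 5, against 15.6, 15.2 and 11.6 in WT 1 to 3, overlapping as well. Ccl2 gave 61.5, 73.9, 104, 89.8 and 77.9 in Emb kd 1 to 5, against 49.9, 53.7 and 88.0 in WT 1 to 3, also overlapping. Ccl12 gave 23.2, 22.0, 65.0, 29.0 and 22.5 in Emb kd 1 to 5, against 6.48, 4.97 and 12.6 in WT 1 to 3. Ccl12 stayed higher in every library labelled knockdown than in every WT library. Cxcl2 gave 32.9, 35.9, 82.1, 66.6 and 97.9 in Emb kd 1 to 5, against 49.7, 22.3 and 28.3 in WT 1 to 3. Here Emb kd 3 to 5 stood above all WT libraries while Emb kd 1 and 2 lay inside the WT range. Cxcl12 gave 0.191, 0.578, 89.2, 51.1 and 89.4 in Emb kd 1 to 5, against 101, 182 and 277 in WT 1 to 3, lower in every library labelled knockdown. The marker sum that it is divided by was higher in every library labelled knockdown than in WT. In CPM, Cxcl12 was below WT only in Emb kd 1 and 2, and Emb kd 3 to 5 lay above WT.

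**Figure D5:**
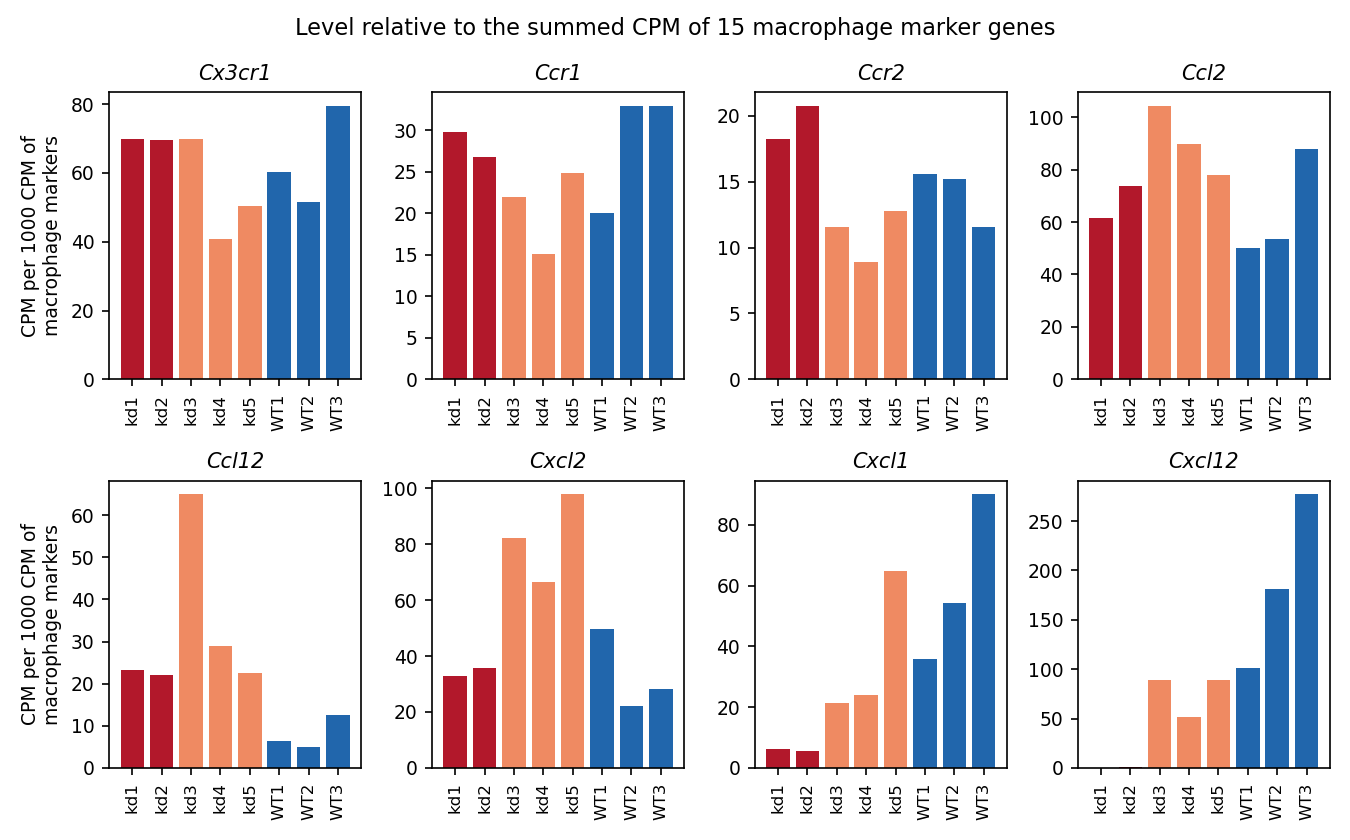
CPM of 8 chemokine and receptor genes per 1000 CPM of 15 macrophage markers (bars from 0, 1 for each library, with its own scale in each panel), Emb kd 1 to 5 left of WT 1 to 3. Cx3cr1, Ccr1 and Ccr2 overlap between the groups, Ccl12 is higher in all 5 libraries labelled knockdown, and Cxcl12 is lower in all 5. The CPM of Cxcl12 itself is above WT in Emb kd 3 to 5, and the marker sum is higher in all 5.

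Genes of the same pathway with other symbols were read from lists, over 6 libraries, and their counts stand against 11.1% of all genes called higher and 9.37% lower. Of 4 chemokine-like genes 2 rose. Pf4, the platelet chemokine that fetal macrophages also express, had 783, 558, 141, 296 and 119.5 CPM in Emb kd 1 to 5, against 37.9, 10.1 and 3.71 CPM in WT 1 to 3. All libraries labelled knockdown were above WT 1, the highest WT library. Its 6-library log2 fold change was 3.44 ± 0.77 (SE; edgeR, adjusted p = 0.0207). Cklf, a chemokine-like factor, also rose (log2 fold change 0.76 ± 0.22 SE, edgeR adjusted p = 0.0448), while Mif (log2 fold change 0.52 ± 0.22 SE, edgeR adjusted p = 0.115) and Ppbp (log2 fold change -0.74 ± 1.11 SE, edgeR adjusted p = 0.658) were not called.

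Of 8 atypical or scavenging receptors 6 were tested, 0 rose and 1 fell, Gpr182, an endothelial scavenger. Gpr182 had 0, 0.0471, 1.44, 0.608 and 0.231 CPM in Emb kd 1 to 5, against 3.65, 4.57 and 4.59 CPM in WT 1 to 3. Every library labelled knockdown was below WT. Set against WT, Emb kd 3 to 5 gave a log2 fold change of -2.47 ± 0.69 (SE; edgeR, adjusted p = 0.0382). Ackr3, which takes up Cxcl12, had 0, 0.0471, 22.2, 22.7 and 18.9 CPM in Emb kd 1 to 5, against 13.1, 6.12 and 20.8 CPM in WT 1 to 3, overlapping between the groups (log2 fold change 0.67 ± 0.39 SE, edgeR adjusted p = 0.240). Ccrl2, a myeloid receptor that binds chemerin, had 505, 453, 47.3, 32.3 and 18.2 CPM in Emb kd 1 to 5, against 12.4, 20.0 and 13.9 CPM in WT 1 to 3, and was not called (log2 fold change 1.08 ± 0.35 SE, edgeR adjusted p = 0.0592).

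Of 27 tested genes of receptor signalling, 5 rose and 6 fell, against 11.1% and 9.37% of all genes. Rgs10 (log2 fold change 1.93 ± 0.24 SE, edgeR adjusted p = 0.00449) and Rgs1 (log2 fold change 1.77 ± 0.41 SE, edgeR adjusted p = 0.0223), which shorten G-protein signals in leukocytes, rose. Dock2, the leukocyte activator of Rac, rose too (log2 fold change 1.78 ± 0.34 SE, edgeR adjusted p = 0.0144). Among those that fell were Rgs16, another regulator of this kind (log2 fold change -2.07 ± 0.40 SE, edgeR adjusted p = 0.0147), the receptor kinase gene Grk6 (log2 fold change -1.03 ± 0.22 SE, edgeR adjusted p = 0.0179) and the G-protein subunit gene Gnb2 (log2 fold change -0.91 ± 0.22 SE, edgeR adjusted p = 0.0256). Among 12 tested genes that process or display chemokines 3 rose and 1 fell. Sdc4, a heparan sulfate proteoglycan, rose (log2 fold change 1.33 ± 0.19 SE, edgeR adjusted p = 0.00753), as did Ndst1, which sulfates heparan chains (log2 fold change 1.41 ± 0.36 SE, edgeR adjusted p = 0.0297), and Mmp9, a protease that trims chemokines (log2 fold change 3.26 ± 0.86 SE, edgeR adjusted p = 0.0332). Ext2, an enzyme that extends heparan chains, fell (log2 fold change -0.90 ± 0.23 SE, edgeR adjusted p = 0.0287).

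Of 13 tested inflammatory inducers and NF-kappaB or interferon regulators 3 rose and 0 fell, against the same shares of all genes. Il1b, an inducer of Cxcl1 and Ccl2, had 789, 599, 65.0, 57.3 and 29.6 CPM in Emb kd 1 to 5, against 6.52, 7.47 and 4.40 CPM in WT 1 to 3. Emb kd 3 to 5 were all above WT, and Emb kd 1 and 2 far above. In the test of 6 libraries its log2 fold change came to 3.05 ± 0.35 (SE; edgeR, adjusted p = 0.00352). Tnf (log2 fold change 2.61 ± 0.47 SE, edgeR adjusted p = 0.0130) and the NF-kappaB feedback inhibitor Tnfaip3 (log2 fold change 1.35 ± 0.19 SE, edgeR adjusted p = 0.00680) rose as well. The other 10, among them the NF-kappaB subunit genes Nfkb1 and Rela, did not pass the threshold.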

How the data were processed

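The 8 libraries were Smart-seq2 cDNA of about 200 sorted cells each, made into transposon libraries and sequenced as DNA nanoballs, per the labels' protocols. The method keeps neither molecular identifiers nor strand. HISAT, Bowtie2 and build GRCm38.p6 are named, per the submitters' processing notes, and the counting tool and annotation are not given in the sources used here. The authors deposited 1 table of genes. Its expected counts were deposited without normalisation, with 17.6% to 19.8% of values per library not whole (tolerance 1e-06), and were rounded here. FPKM and TPM were computed by the authors, per the file headers. A normalised count signal and 8 columns of group means were also deposited, and neither was used.

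Rounded counts were tested with edgeR 4.0.16 (R 4.3.3; quasi-likelihood, robust, TMM, filterByExpr, two-sided), and a gene was called at a Benjamini-Hochberg adjusted p below 0.05 in the whole table, with 8 libraries and with the 6 that exclude Emb kd 1 and 2. CPM use TMM factors of all 8 libraries, and SE is the log2 fold change over the root of the F statistic. The fit was also run on simulated counts with 2-fold, 4-fold and 32-fold changes, drawn with the mean levels and dispersions of these data. The simulated libraries did not set Emb kd 1 and 2 apart from the others. With 8 libraries the fit recovered 0 of 67, 10 of 67 and 46 of 66 of the changes, with 2 false calls. With 6 libraries it recovered 18 of 67, 55 of 67 and 58 of 66, with 3 false calls. A gene that was not called may therefore still differ. Members, marker and pathway lists and the omission of Emb kd 1 and 2 were chosen with earlier results of these data known. Values by library are given for members that reached 10 CPM or were called, for Cxcl12 and Cxcr4, and for some of their ligand or receptor partners. Pathway genes that passed the threshold and atypical receptors were named, at most 6 a list. Ccl27b was named after its values were seen. Alternatives were DESeq2 1.42.0, limma 3.58.1 voom, other scalings and filters, limma on log2(FPKM + 1) or log2(FPKM + 0.1) for genes with a mean of at least 1 FPKM, log2(FPKM + 1) without that filter, the replicate number as a block, and each library left out. All 53 symbols matched RefSeq by gene identifier, promoters were given for 39, and motifs were searched in 250 bases before the start. Identity was taken between the longest open reading frames of the reference transcripts. The values of 1 member are not reported here, although counts and sums over the family include it.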

Additional observations from a re-analysis of the deposited data

Results flagged for a closer look

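Ccl21c had 0.281 CPM in Emb kd 4 and 0 CPM in the 4 other libraries labelled knockdown, so that 1 library accounts for the whole range of its group. Ccl21c was the 1 gene singled out by this check of a lone extreme library in the 28 genes that reached 10 CPM or were called. The check was made in the 5 libraries labelled knockdown, since the 3 WT libraries are too few for it. Its rate of about 1 in 20 groups by chance is meant for normally distributed values. That rate does not hold here, because with 4 values at 0 any other value above 0 is flagged. The gene was untested, having failed the filter on low counts.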

How the results depend on the processing

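With 6 libraries, 19 chemokine and receptor genes were called, and 14 to 21 under the settings that keep all 6 libraries. Leaving out 1 library gave 6 to 20 calls, and 6 genes were called each time. Of the 19 genes, 13 kept their call under every setting with all 6 libraries. Calls over all genes numbered 3090 with 6 libraries, 6900 by limma voom, 2033 on log2(FPKM + 1) without a filter and 180 to 5982 without 1 library, with fewest when Emb kd 4 was left out. The 1673 higher and 1417 lower calls became 1445 and 1735 with no composition factor, 1282 and 2048 on log2(FPKM + 1) and 1264 and 1971 on log2(FPKM + 0.1). With 8 libraries edgeR called 0 genes, DESeq2 called 20 chemokine and receptor genes among 2222 genes, and limma voom 17 among 3691. On log2(FPKM + 1) without a filter 27 genes were called, none of them of this family, and leaving out 1 library gave 0 to 2. Without a composition factor the median log2 fold change of all genes was -0.17 in place of 0.07 over 8 libraries. The direction turned with 8 libraries for 7 genes, none of them called there. By limma voom the log2 fold changes were 0.76 for Ccl21b, -2.04 for Ccr8 and 0.28 for Cxcl12. On log2(FPKM + 0.1) they were -0.68 for Ccl11, -0.77 for Ccl27a, -0.27 for Cxcl13 and -0.32 for Cxcl14, and on log2(FPKM + 1), with or without a filter, -0.67 for Ccl27a and -0.16 for Cxcl14. Cxcl12 was at 0.0019 with at least 1 CPM in 3 libraries, and Cxcl14 at -0.036 with no composition factor. Leaving out 1 library gave -3.87 to 2.42 for Ccl21b, -0.10 to 0.45 for Ccl27a, -0.41 to 0.30 for Cxcl12 and -0.31 to 0.62 for Cxcl14. With 6 libraries Ccl21b turned to 1.01 by limma voom and 0.48 on log2(FPKM + 0.1), and without 1 library it ranged from -3.30 to 2.95 and Ccr8 from -3.62 to 1.67. The cause was not tested. Replicate numbers did not pair the libraries (correlations of -0.080, 0.145 and -0.021, with 1 of 3 pairs closest to its own number). With the number as a block, 0 of the family and 0 genes in all were called over 8 libraries, and the log2 fold changes were -2.53 for Ccl11, 1.15 for Ccl21b, -1.52 for Ccl27a, -1.83 for Cxcl13 and -0.47 for Cxcl14. No block was fitted to the 6 libraries, where the groups share 1 number. Depth limits genes near 3 counts, among them Cxcl5 in WT, and with 3 libraries against 3 single values have no permutation p below 0.10.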
